A study of Caenorhabditis elegans with 2 samples.

Results

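The nematode-specific peptide (nsp) families are sets of small, mostly uncharacterised worm genes that share a family name and a number. They were taken here as all genes whose name begins with nspa to nsph followed by a number, and 83 of 21163 gene rows met that rule. The families held 10 (nspa), 12 (nspb), 18 (nspc), 10 (nspd), 8 (nspe), 3 (nspf), 14 (nspg) and 8 (nsph) genes. RNA was sequenced from whole Caenorhabditis elegans of strain N2, the wild-type laboratory strain, at day 5. The control worms received vehicle, and the other group received 100 µM ellagic acid (EA), a plant polyphenol, which was prepared in dimethyl sulfoxide and mixed with the food bacterium Escherichia coli OP50. Each group held 1 library, with 41840364 counts in the control and 39421614 in EA, so no difference below has a replicate check, no p-value is given, and all intervals are 95% intervals of counting error only. Reads without molecular identifiers are not independent molecules, so true counting error may be wider. The labels do not give sex, the number of worms per library, or whether day 5 is an age or a duration of treatment. In whole animals, fewer cells of a type and less RNA per cell cannot be told apart.

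The family letter groups genes of similar sequence. Members of nspd and nspf are known as sperm proteins of Caenorhabditis. In the authors' annotation all 8 nsph members carried the Pfam label "Cytosolic motility protein". That label is built on MFP2, which in sperm of the pig parasite Ascaris speeds the growth of filaments of major sperm protein (MSP), the polymer on which nematode sperm crawl. The other families had labels of unknown function (DUF1459 for the 12 nspb genes, DUF780 for the 10 nspd genes, DUF1412 for the 8 nspe genes) or none. Across the whole table the nsph, nspb and nspd labels stood on no other row, and the nspe label on 1 other, Y38E10A.9. Copies within a family can share reads. The sources used here do not say how such reads were counted or whether strand was used, so family sums are given beside the single genes.

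Gene structure separated the families. In the annotation of build WBcel235 every nspa, nspd and nspf gene had 1 exon, with proteins of 34, 70 to 73 and 87 residues. Every nspb and nspc gene had 2 exons, with 79 to 86 and 101 to 103 residues. Of the nspe genes 2 had 1 exon and 6 had 2, with 71 to 75 residues. Members of nspg had 4 to 8 exons and 219 to 272 residues. Within nsph, 6 genes had 3 exons, nsph-1.1 had 8 and nsph-1.2 had 9. Position differed as well: all 18 nspc genes lay on chromosome X, all 8 nspe and all 3 nspf genes on chromosome II and 9 of 10 nspa genes on chromosome V, while nspd, nspg and nsph were spread over 4, 5 and 4 chromosomes.

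Of the 83 genes 44 were measured, meaning that their mean over both libraries was 1 CPM (a library-size-scaled count) or more. That level is 41.3 counts in the control library and 39.9 in EA. The measured genes were all 18 of nspc, 10 of nspg, 7 of nsph, 5 of nspe and 4 of nspd. A further 14 genes had 0 counts in both libraries. The genes nearest the minimum were nspd-6, at 1.01 CPM, and nspe-7, at 0.996 CPM and so left out. A gene was called higher or lower with EA when its scaled counts differed by at least 2-fold and the interval of the ratio excluded 1. By this rule 5 of the 44 were higher and 3 were lower. Over all 14221 measured gene rows, 2.03% were called higher and 3.52% lower. The 5 higher genes were all of nsph, and the 3 lower ones were nspc-6, nspc-17 and nspe-6. The authors' deposited table, which assessed 46 nsp genes, calls the same 5 up and the same 3 down. The median log2 ratio over the 44 was -0.35, against 0.00 over all measured rows, and 33 of the 44 ratios were below 0.

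**Figure D1:**
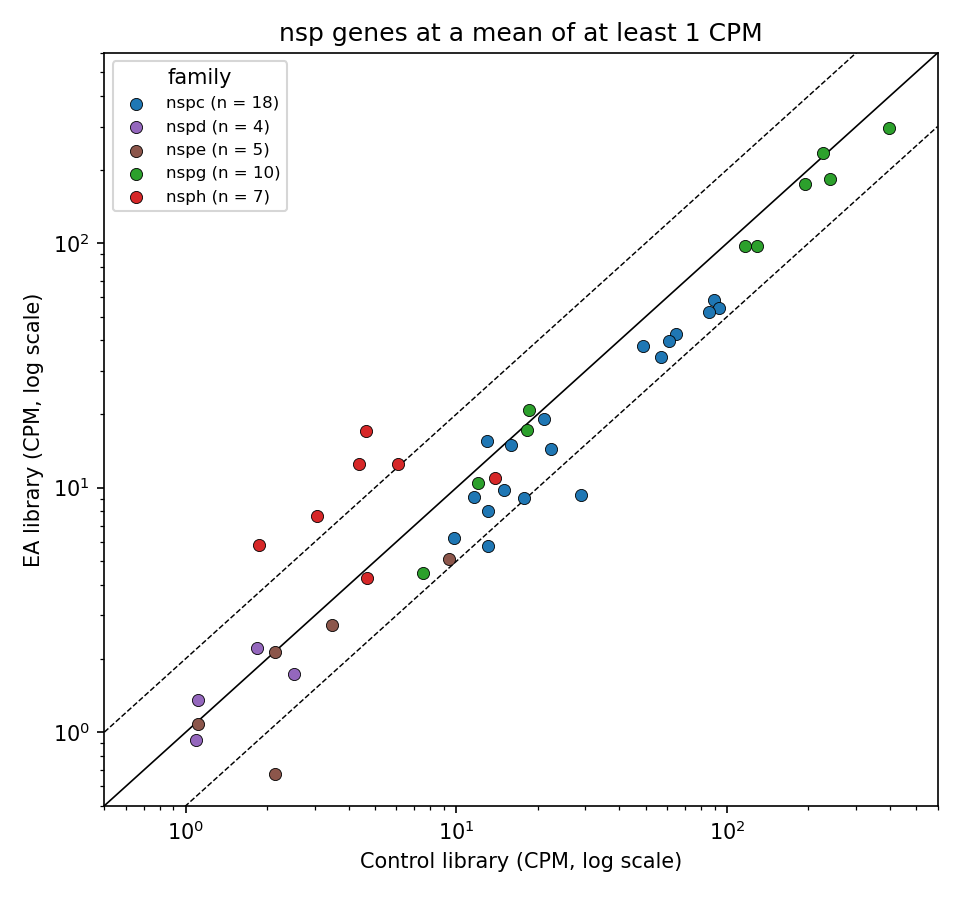
Level of each measured nsp gene in the control library (horizontal, CPM, log scale) against the EA library (vertical, CPM, log scale), 1 point per gene and 1 library per axis. The solid line marks equal levels and the dashed lines 2-fold. The 5 red points above the upper line are nsph genes, and most nspc points lie between the equal line and the lower line.

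All 5 nsp genes called higher with EA were of nsph, the family labelled "Cytosolic motility protein". Summed over its 8 members the family had 1602 counts in the control and 2825 in EA, or 38.8 and 70.8 CPM, a ratio of 1.83 (1.72 to 1.94). Its share of all nsp counts was 1.84% in the control and 4.24% in EA. The sum hid a split inside the family, which was seen in the values and then followed by exon number. The 5 measured genes with 3 exons had 826 and 2213 counts together, a ratio of 2.78 (2.56 to 3.01). The pair with 8 and 9 exons had 765 and 609 counts, a ratio of 0.825 (0.740 to 0.918). Since the split was made on these ratios, the difference between its sides is a description only.

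Among the 3-exon genes nsph-4.2 (chromosome IV, 5218796 to 5220169, plus strand) had 191 counts in the control and 678 in EA, or 4.62 and 16.99 CPM, 3.68-fold higher (3.13 to 4.34). Its neighbour nsph-4.1 (chromosome IV, 5226852 to 5228236, plus strand) had 180 and 498 counts, 4.355 and 12.5 CPM, 2.87-fold higher (2.41 to 3.42). Both encode 381 residues and have the same best database match in the authors' annotation, so reads may have been divided between them. Taken as 1 unit they had 371 and 1176 counts, 3.28-fold higher (2.92 to 3.70). The joint value does not depend on how reads were divided within the pair. Their 8 measured neighbours within 20 kb had a median log2 ratio of 0.24 and none was called. Of all 2344 measured genes of chromosome IV, where 4 of the 5 higher nsph genes lie, 3.84% were called higher and 3.28% lower.

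The remaining 3-exon genes lay apart from that pair. On chromosome I nsph-2 (8242134 to 8243572) had 77 and 233 counts, 1.86 and 5.84 CPM, 3.13-fold higher (2.41 to 4.11). On chromosome IV nsph-3.1 (10949810 to 10951133) had 126 and 305 counts, 3.05 and 7.64 CPM, 2.51-fold higher (2.03 to 3.11). On the same chromosome nsph-3.2 (10112870 to 10114287) had 252 and 499 counts, 6.10 and 12.5 CPM, 2.05-fold higher (1.76 to 2.40). Of these, nsph-3.2 stood closest to the 2-fold limit. The last 3-exon gene, nsph-4.3 on chromosome III, did not follow the others. It encodes a shorter protein of 187 residues, lies on the minus strand, and had 11 counts in the control and 3 in EA, too few to be measured.

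The multi-exon genes had ratios on the other side of 1. For nsph-1.2 (chromosome I, 12183688 to 12189008) 572 and 439 counts gave 13.8 and 11.001 CPM, 1.26-fold lower (1.11 to 1.43). For nsph-1.1 (chromosome II, 8766775 to 8769422) 193 and 170 counts gave a log2 ratio of -0.13 (-0.44 to 0.17), an interval that includes 0. In the control, nsph-1.2 had the highest level of the family per transcript length, at 12.1 FPKM (the authors' value, scaled to both transcript length and library size), and the 3-exon genes measured had 1.57 to 4.29 FPKM. In EA the order changed, with nsph-4.2 at 13.6 FPKM above nsph-4.1 at 9.88, nsph-1.2 at 9.83 and nsph-3.2 at 9.23. Without nsph-1.2, its most abundant member, the family sum had a log2 ratio of 1.26 in place of 0.87.

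Other sperm transcripts were described beside nsph. The msp family, the MSP genes themselves, had 10 of 26 measured members called higher and 0 lower, a median log2 ratio of 0.86 and summed counts of 2813 and 4975, a ratio of 1.83 (1.75 to 1.92). After a trend on transcript length was subtracted, its median was 1.34. The ssp genes (short relatives of MSP) had 4 of 7 higher and a sum ratio of 1.56 (1.402 to 1.73), and the sperm-specific ssq genes 3 of 4 higher and a sum ratio of 2.17 (1.99 to 2.35). Over all measured genes 2.03% were called higher and 3.52% lower. Of 20 measured sperm genes outside the msp, ssp and ssq families 7 were higher and 0 lower, with a median of 0.66. They included the sperm phosphatase genes gsp-3 and gsp-4, each at a log2 ratio of 1.20, and the sperm chromatin gene spch-3 at 1.25. Ratios of spe-11 and spe-6 were near 0, at 0.09 and 0.12, and the 2 below 0 were spe-10 at -0.29 (56 and 44 counts) and spe-49 at -0.23 (68 and 56 counts). These examples were chosen after their values were seen. Across 16 genes of oocytes and the eggshell, 0 passed 2-fold and the median was 0.32. For the 4 measured genes of a list of 5 linked to male seminal fluid or tail the median was 0.14. The ratio of the sums over all 5 was 0.775 (0.716 to 0.838), with swm-1 giving 837 of the 1475 control counts. The cells that hold these transcripts were not measured, so the sum is not a measure of male tissue. The most abundant of them, swm-1, a protease inhibitor of male seminal fluid, had 837 and 438 counts, and try-5, a male seminal protease, had 402 and 374. The share of sperm or of males in the worms was not measured, and its part in the nsph values was not tested.

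**Figure D2:**
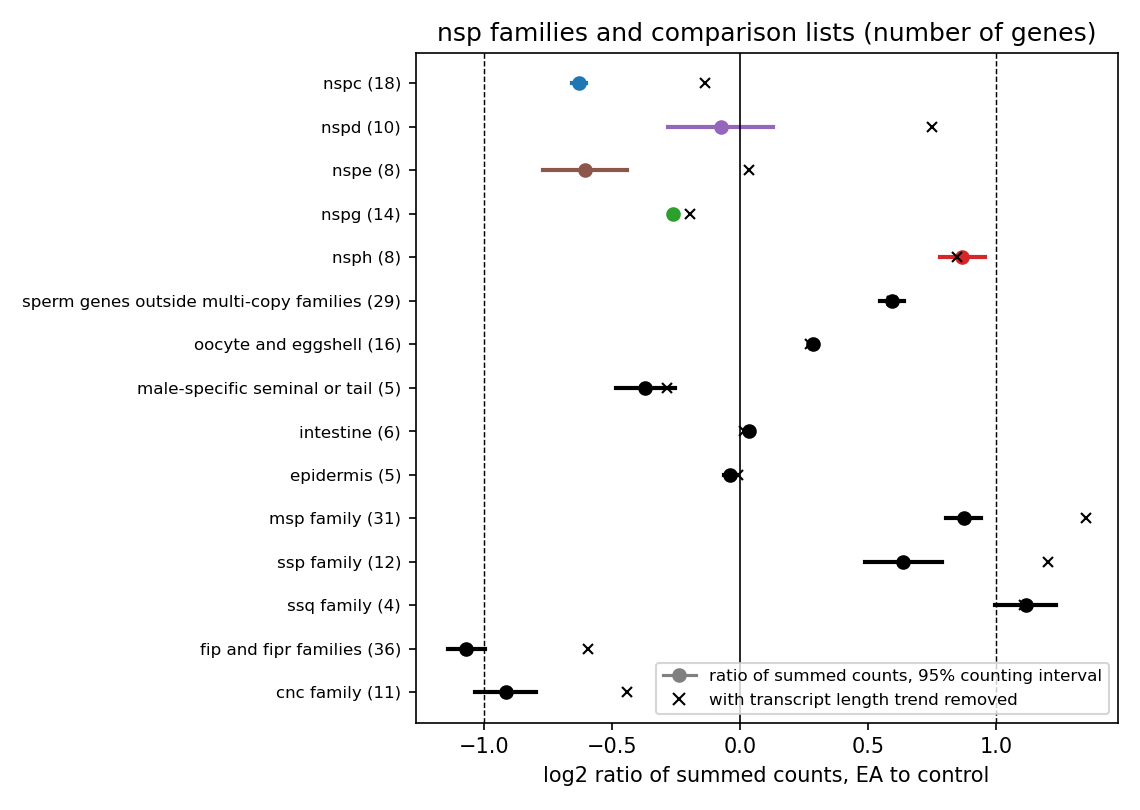
Log2 ratio (EA to control) of the summed counts of each nsp family with measured members and of each comparison list, with the number of genes in brackets. Points with bars are the ratio and its 95% counting interval from 1 library per group, crosses are the same sum after the trend on transcript length was removed, and dashed lines mark 2-fold. The nsph and msp points lie near 0.87, but their crosses lie apart, at 0.85 and 1.35. The nspc and nspe points lie near -0.6. The crosses of nspc, nspd, nspe, msp and ssp are all to the right of their points.

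Of the other sperm-linked nsp families only nspd was measured. Its sum was 408 and 374 counts, a log2 ratio of -0.07 (-0.28 to 0.13), with 0 of 4 measured members past 2-fold. With a trend on transcript length subtracted the nspd sum was at 0.75, beside 0.85 for nsph, and 2 of the 4 passed 2-fold. The 29 measured genes under 250 nucleotides, which include these 4, then had a median of 0.25. Whether the subtraction is too large at that length was not tested. The share of all genes past 2-fold after subtraction was not counted. nspd-7 (chromosome IV, 10268975 to 10269187) had 104 and 69 counts, 2.52 and 1.73 CPM, 1.46-fold lower (1.06 to 2.00), and nspd-1 (chromosome I) had 76 and 88, or 1.84 and 2.21 CPM, a ratio of 1.20 (0.872 to 1.65). The values of nspd-5 (chromosome II, 4860145 to 4860360) were 46 and 54 counts, 1.11 and 1.35 CPM, a ratio of 1.22 (0.805 to 1.84). Both of the latter intervals include 1, and so does that of nspd-6 (45 and 37 counts). The 6 nspd genes under the minimum had 137 counts in the control and 126 in EA. nspd-3 and nspd-6, as well as nspd-4, nspd-5 and nspd-8, share a best database match. Their joint ratios were 0.976 (0.685 to 1.39) and 1.13 (0.817 to 1.58). The nspf genes, which encode proteins that activated sperm release, had 0 counts in the control and 2 in EA over all 3 genes, and a count of 0 allows up to 0.0726 CPM per gene in the control.

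Transcript length moved with the ratio across the whole table, and the nsp families fall on different parts of that trend. Of 135 measured genes with transcripts of 250 to under 350 nucleotides 29.6% were called lower and 2.96% higher, and the median log2 ratio was -0.69. At 350 to under 500 nucleotides, 15.5% of 599 genes were lower, 2.34% were higher, and the median was -0.41. At 500 to under 1000 nucleotides it was 4.49% and 2.31% of 3116 genes and a median of -0.11. At 1000 to under 1500 nucleotides, where all but one of the measured nsph genes lie, 2.78% of 3675 genes were lower, 2.61% were higher, and the median was 0.02. The 29 measured genes under 250 nucleotides had a median of -0.61, with 13.8% lower and 0% higher. Annotated nspd transcripts span 213 to 222 nucleotides and nspc transcripts 306 to 448, while the measured nsph transcripts span 1095 to 1632. A smooth trend on length was therefore subtracted as an alternative. The 5 nsph genes then had log2 ratios from 1.01 to 1.86, and all 5 stayed past 2-fold. The 4 nspd genes moved from between -0.54 and 0.28 to between 0.29 and 1.10, where nspd-1 (1.09) and nspd-5 (1.10) passed 2-fold. In that range the trend rests on few genes. It was fitted at 5 CPM or more, while the measured nspd genes had means of 2.12 CPM or less. After subtraction the 29 measured genes under 250 nucleotides kept a median of 0.25. For nspd, nspe-1 and nspe-2 the annotated length is the coding sequence with its stop codon, without untranslated parts. The same holds for msp genes of 384 nucleotides. Real transcripts may be longer, and the trend is then read at too short a length. The cause of the length trend was not tested.

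**Figure D3:**
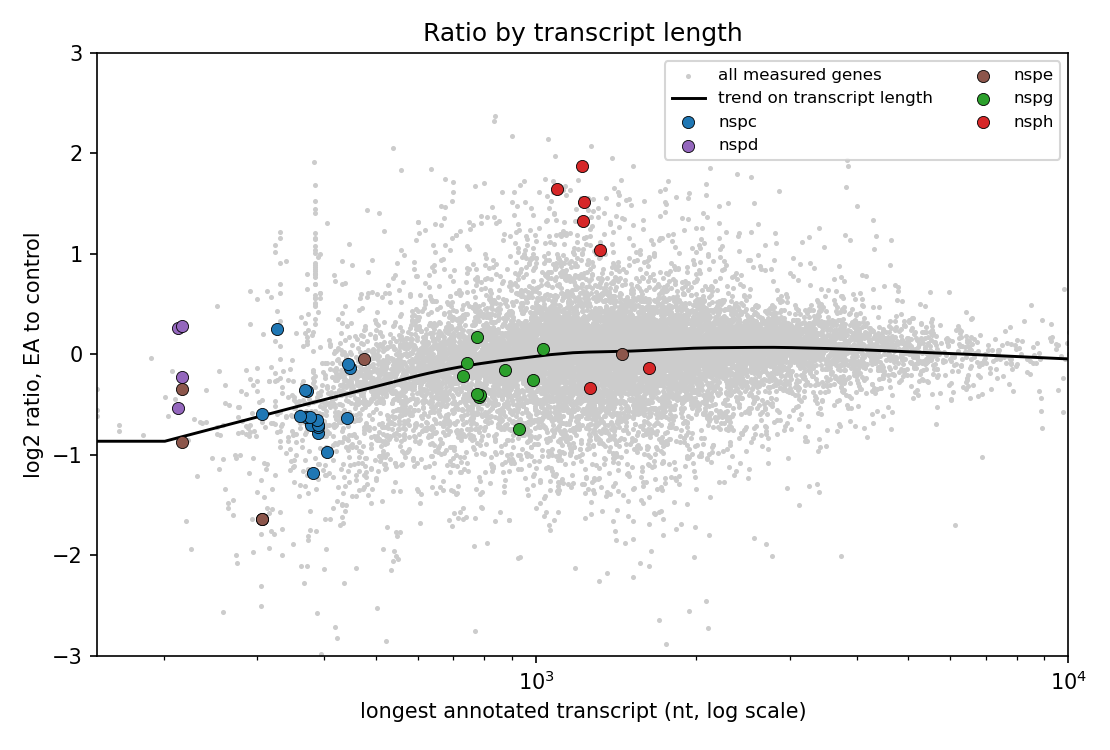
Log2 ratio (EA to control) against the longest annotated transcript (nucleotides, log scale) for all measured genes (grey), with nsp genes coloured by family and the fitted trend as a line. 57 of the measured genes lie outside the axes. The nspc points scatter around the low left part of the trend, which rises with length. The nspd points lie above it, and 5 nsph points lie more than 2-fold above it at transcript lengths where the line is near 0.

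The nspc genes were lower with EA almost as a body, by less than 2-fold. Their 18 members had 28189 counts in the control and 17603 in EA, or 682 and 441 CPM, 1.55-fold lower (1.52 to 1.58). Of the 18 ratios 17 were below 0, 15 with an interval that excluded 0, and the median log2 ratio was -0.63. Only nspc-6 and nspc-17 were called lower, and 0 were called higher. By the same rule 3.52% of all measured genes were lower and 2.03% higher. The lower share was 29.6% at 250 to under 350 nucleotides and 15.5% at 350 to under 500. The nspc median compares with -0.69 over all measured genes of 250 to under 350 nucleotides, which include nspc-2, nspc-5 and nspc-6. At 350 to under 500 nucleotides, where the other nspc genes lie, the median was -0.41, less negative than that of nspc. Once the length trend was subtracted, the nspc median was -0.16 and the sum had a log2 ratio of -0.14, with 12 members below 0 and 6 above.

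The most abundant nspc genes were alike in their ratios. nspc-10 (12343609 to 12344043) had 3865 and 2162 counts, 93.5 and 54.2 CPM, 1.73-fold lower (1.64 to 1.82). nspc-7 (8541862 to 8542283) had 3713 and 2333 counts, 89.8 and 58.5 CPM, 1.54-fold lower (1.46 to 1.62). nspc-20 (14529788 to 14530207) had 3539 and 2093 counts, 85.6 and 52.4 CPM, 1.63-fold lower (1.55 to 1.72). Among the 5 genes with a mean of 50 CPM or more, a limit set after the values were seen, log2 ratios ran from -0.79 to -0.60. The 13 others ran from -1.64 to 0.26.

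Both ends of that wider range lay next to each other on the chromosome. nspc-6 (chromosome X, 8541146 to 8541496, minus strand) had 1198 and 372 counts, 28.98 and 9.32 CPM, 3.11-fold lower (2.77 to 3.50). The gene before it, nspc-5 (8538726 to 8539097, plus strand), had 536 and 618 counts and the only ratio above 1, 1.19 (1.06 to 1.34). In the authors' annotation nspc-2, nspc-5 and nspc-6 share a best database match, nspc-5, and all 3 encode 101 residues. Together they had 4402 and 2691 counts, 1.58-fold lower (1.505 to 1.66), beside 1.55-fold for the whole family. Whether reads were divided differently among the 3 in each library was not tested. nspc-17 (14524754 to 14525181), the other gene called lower, had 540 and 230 counts, 13.1 and 5.76 CPM, 2.27-fold lower (1.94 to 2.66), and shares its best match with nspc-19. That pair had 1162 and 620 counts, 1.81-fold lower (1.64 to 2.00). After removal of the length trend nspc-6 was at -1.02 and nspc-17 at -0.70, the latter under 2-fold.

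The 18 nspc genes form 3 groups on chromosome X with both strands in use. The first group, nspc-1 to nspc-7 (8534672 to 8542283), had 13392 and 8232 counts, 1.57-fold lower (1.53 to 1.61). A second group of 6, nspc-9 to nspc-15 (12342946 to 12361159), had 8702 and 5699 counts, 1.47-fold lower (1.43 to 1.52). The third, nspc-16 to nspc-20 (14523575 to 14530207), had 6095 and 3672 counts, 1.60-fold lower (1.54 to 1.67). The second group had the smallest difference, and its interval lay just below those of the other two. Other measured genes inside the groups or within 20 kb had median log2 ratios of 0.02 (6 genes), 0.04 (8 genes) and 0.00 (7 genes), and 3 of these 21 neighbours were called lower: zig-2, rif-1.2 and gcsh-1. Annotated transcripts of the neighbours span 450 to 3832 nucleotides, against 306 to 448 for nspc, so the comparison is not matched for length. Over all 1985 measured genes of chromosome X the median was -0.08, with 4.08% called lower and 0.151% higher.

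**Figure D4:**
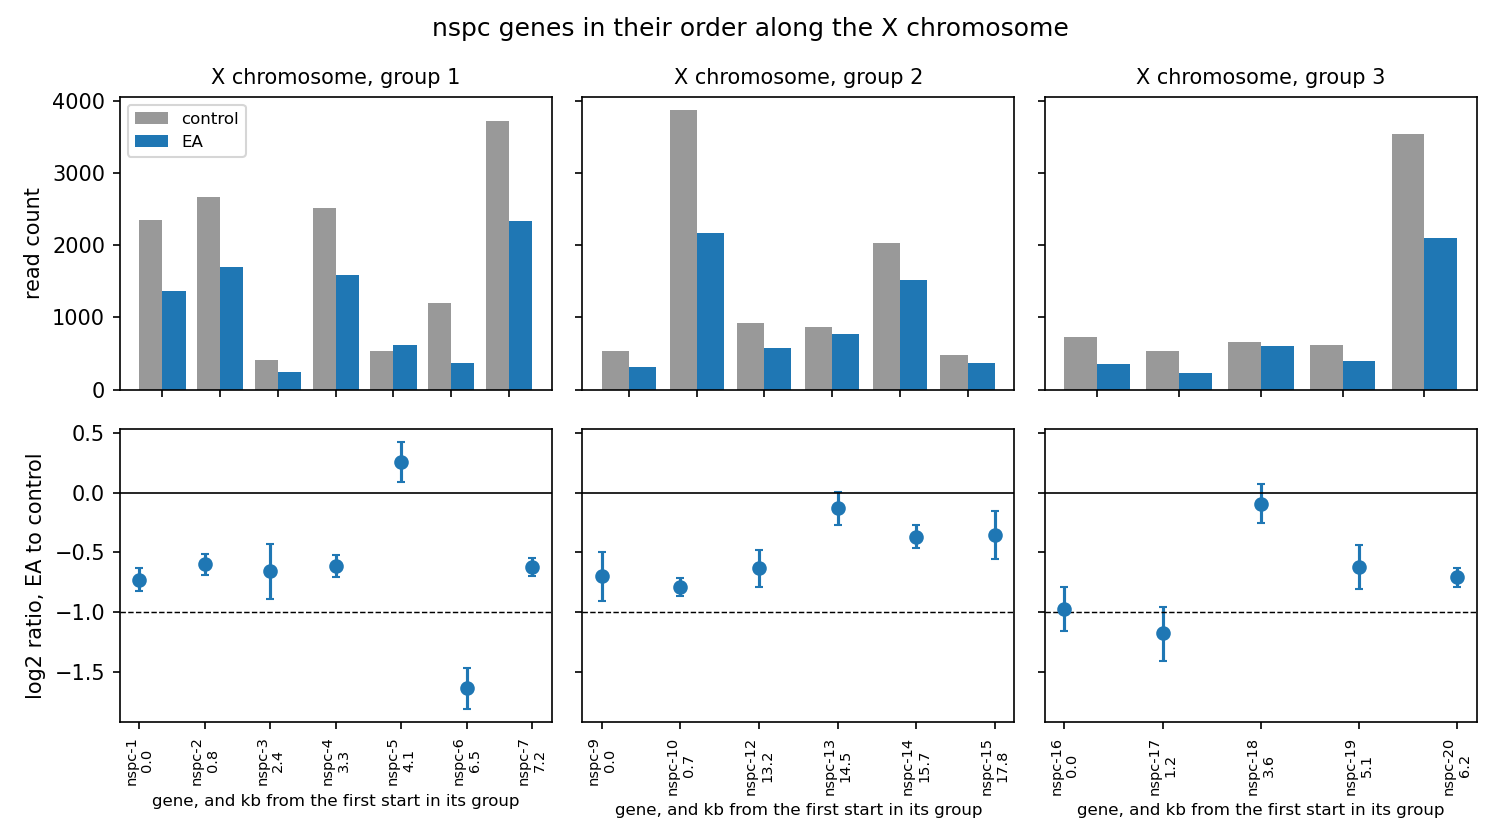
The nspc genes in their order along the 3 groups on chromosome X, with the distance from the first start of the group in kb under each name. The upper row gives read counts in the control (grey) and EA (blue) libraries, and the lower row gives the log2 ratio with its 95% counting interval. 17 of 18 genes have a ratio below 0, and nspc-5 and nspc-6 stand at opposite ends of the first group's range.

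The nspe genes lie in a single group of 16.9 kb on chromosome II (12612518 to 12629384), with 4 members on each strand. Their sum was 797 and 506 counts, 1.52-fold lower (1.36 to 1.70). One abundant gene carried much of it: nspe-1 (12620649 to 12620864) had 388 and 204 counts, 9.39 and 5.11 CPM, 1.84-fold lower (1.55 to 2.19), and the sum without it had a log2 ratio of -0.39 in place of -0.60. nspe-6 (12615828 to 12616181) had 88 and 27 counts, 2.13 and 0.677 CPM, 3.15-fold lower (2.02 to 5.04), and was the only 1 of 5 measured nspe genes called. The share called lower was 3.52% of all measured genes and 29.6% of those with 250 to under 350 nucleotides, the range of nspe-6. nspe-2 had 144 and 109 counts, 3.48 and 2.73 CPM, 1.28-fold lower (0.988 to 1.65), and nspe-4 had 88 and 85, 2.13 CPM in both. Their intervals and that of nspe-5 (46 and 43 counts) included 1. nspe-7 had 43 and 38 counts, and nspe-3 and nspe-8 had 0 in both libraries. The 1-exon genes nspe-1 and nspe-2 have annotated transcripts of 216 nucleotides, without untranslated parts, and nspe-6 has 306. After that trend was removed nspe-1 was at -0.05, nspe-6 at -1.03 and the family sum at 0.03. The 6 measured neighbours within 20 kb had a median log2 ratio of -0.05. Their annotated transcripts span 890 to 4236 nucleotides, so they are not matched to nspe for length.

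The nspg genes were the most abundant, and their sum was modestly lower with EA. They took 64.4% of all nsp counts in the control and 68.0% in EA, 56228 and 45354 counts, and their sum was 1.20-fold lower (1.18 to 1.21). None of the 10 measured members passed 2-fold, and 8 of the 10 ratios were below 0. nspg-7.1 (chromosome IV, 9329040 to 9330855) had 16466 and 11837 counts, 398 and 297 CPM, 1.34-fold lower (1.31 to 1.38). At 475 FPKM in the control it also had the highest level per transcript length of all nsp genes, above nspg-6 at 288 FPKM and nspc-10 at 223 FPKM. nspg-6 (chromosome III, 7313149 to 7314977) had 9898 and 7273 counts, 239 and 182 CPM, 1.31-fold lower (1.27 to 1.35). nspg-10 (chromosome IV, 4605786 to 4608217) had almost equal counts, 9362 and 9376, or 226.5 and 234.96 CPM, and its log2 ratio was 0.05 (0.01 to 0.09).

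Among the less abundant nspg genes nspg-1 (chromosome V, 12863761 to 12868097) had the largest difference, at 311 and 179 counts, 7.52 and 4.49 CPM, 1.68-fold lower (1.39 to 2.03). nspg-8 had 766 and 833 counts, a log2 ratio of 0.17 (0.03 to 0.32), and nspg-11 and nspg-12 had -0.21 and -0.08. The 3 neighbours on chromosome X (5253047 to 5258384, all plus strand) graded from nspg-13, 1.33-fold lower, through nspg-14, 1.11-fold lower, to nspg-12. Their order in ratio is not their order on the chromosome, where nspg-14 comes first. nspg transcripts span 729 to 1032 nucleotides, where the length trend is shallow, and the sum had a log2 ratio of -0.26 before and -0.19 after its removal. The 4 nspg genes under the minimum had 2 to 9 counts in the control and 0 to 25 in EA, the highest being nspg-3 with 9 and 25.

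**Figure D5:**
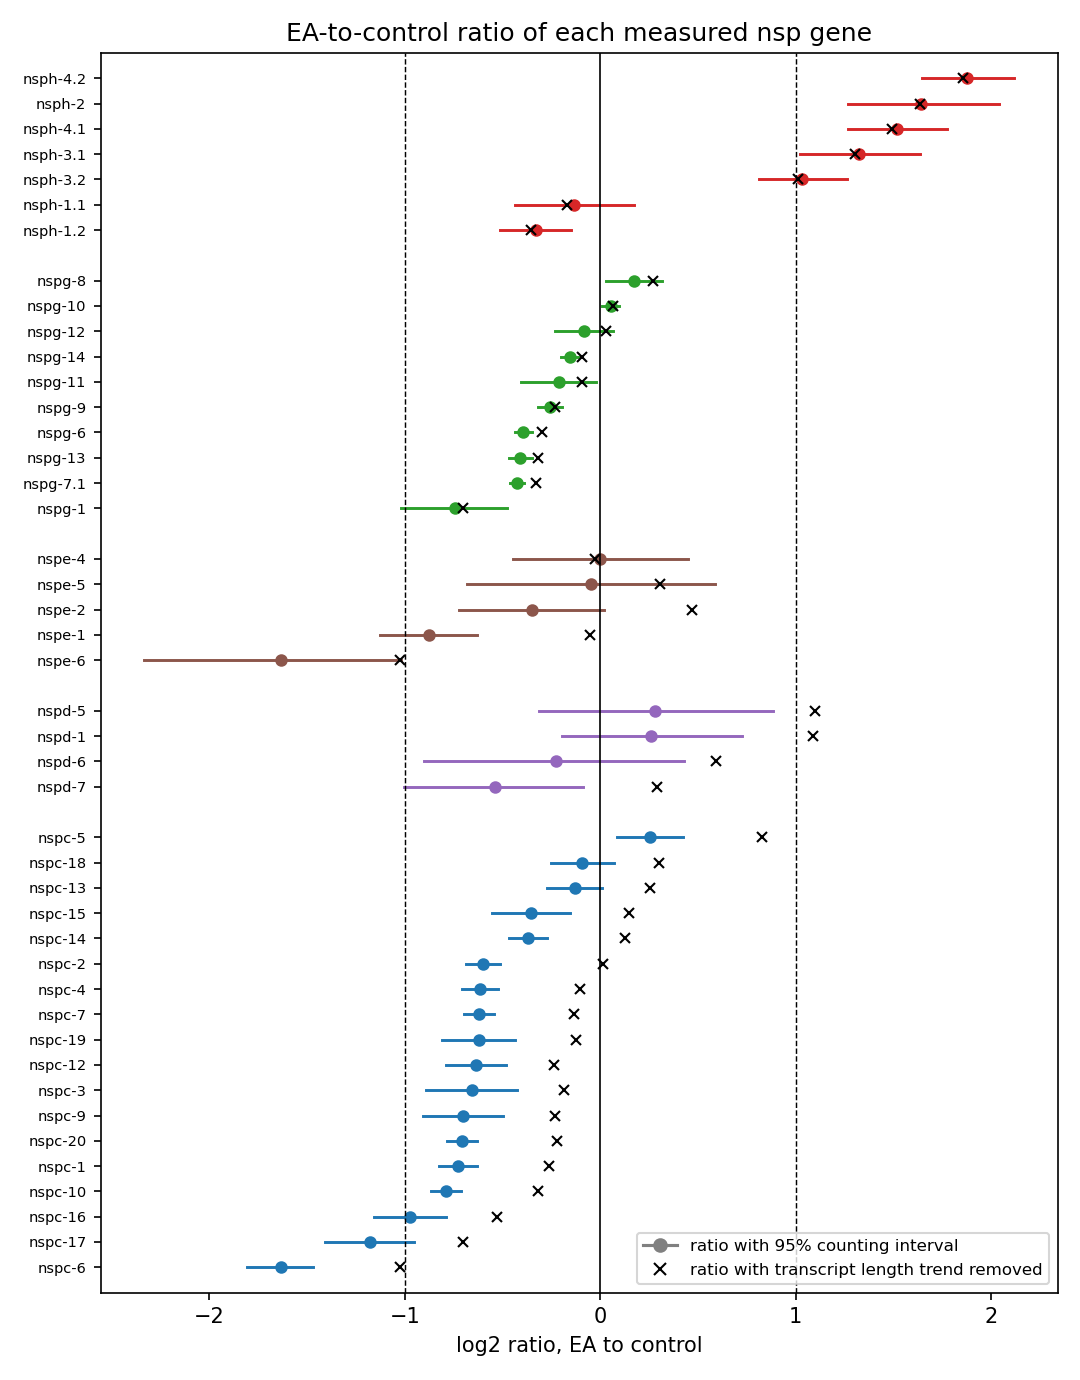
Log2 ratio (EA to control) of each of the 44 measured nsp genes, grouped by family and ordered by ratio. Points with bars are the ratio and its 95% counting interval from 1 library per group, crosses the ratio with the length trend removed, and dashed lines 2-fold. The 5 nsph genes past 2-fold keep their place when length is accounted for, whereas points of nspc, nspd and 4 of the 5 nspe genes move to the right.

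The nspa and nspb families were close to undetected. All 10 nspa genes together had 29 counts in the control and 26 in EA, a ratio of 0.929 (0.525 to 1.63), with at most 7 counts for any gene. The 12 nspb genes had 10 and 7 counts, a ratio of 0.725 (0.234 to 2.11), and 8 of them had 0 in both libraries. A difference between the groups was not detectable at this depth in either family. Counts of 10 or fewer did not track the authors' FPKM closely and may not be whole reads, which limits these values and those of the other genes that low. nspb-1, with 6 counts in the control and 0 in EA, was the largest count in its family.

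Among multi-copy families of short antimicrobial peptides, the fip and fipr genes had 7 of 9 measured members lower and a median log2 ratio of -1.32, and the cnc genes 2 of 5 and -0.79. Over all measured genes 3.52% were called lower, with 29.6% at 250 to under 350 nucleotides and 15.5% at 350 to under 500. With length accounted for the fip and fipr and cnc medians were -0.90 and -0.27, and 4 of 9 and 1 of 5 were lower. The nspc median, by the same measure, went from -0.63 to -0.16. Markers of intestine (6 measured) and epidermis (3 measured) had medians of -0.02 and -0.05. Members of these lists went both ways: among intestinal genes elt-2 was at 0.42 and ges-1 at -0.27. mtl-2 (-1.07) and nlp-29 (-1.01) were each called lower, and neither call held with the length trend removed.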

How the data were processed

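Raw counts per gene were deposited in one table. It also holds FPKM, per the file headers and the labels' protocols. The submitters' processing notes name build WBcel235 and edgeR, without a version, and the deposited table holds the authors' log2 ratio and call. The aligner and counter are not given there. The EA to control ratio of counts per FPKM was within 5% of its median over rows with at least 100 counts in each library for 97.0% of those rows, but for 32.1% of rows with 1 to 10 counts, so counts that low may not be whole reads.

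CPM used trimmed mean of M values scaling in edgeR 4.0.16 under R 4.3.3, with factors of 0.988 and 1.01. Log2 ratios of single genes had 0.5 added to each count, and folds and family sums had nothing added. Intervals are exact conditional (Clopper-Pearson) intervals. With 1 library per group no test was run. Length is the longest transcript in the Ensembl annotation of WBcel235 (83 of 83 genes matched), and the trend was a lowess fit with span 0.3 over genes at 5 CPM or more. Positions, counted from 1, come from the RefSeq gene table of the same build, in which 6 further nsp genes were not analysed here. Alternatives used total counts, DESeq2 1.42.0 size factors, FPKM, the length trend, other minimums and another pseudocount. Full values were given in each family for the 3 most abundant and the 2 most changed genes. Members, lists and rules were chosen with earlier results of these data known, and the exon split and shared-match sums after their values were seen.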

Additional observations from a re-analysis of the deposited data

How the results depend on the processing

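No paired analysis was possible because each group held 1 library. All 8 called genes kept their direction under every alternative in which they were measured, with nsph-3.2 between 1.01 and 1.11 and nspc-17 between -1.18 and -0.70. The 5 higher and 3 lower calls became 7 and 2 with the length trend removed, the added ones being nspd-1 and nspd-5. They became 4 and 2 at a minimum of 5 CPM. With no minimum they were 6 and 4, the additions there being nspg-3 and nspb-1 with few counts. The share of all genes called was counted under the main rule only, so these counts have no background beside them. Total counts, DESeq2 size factors, FPKM and a pseudocount of 5 left 5 and 3.

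The following sums lay outside the counting interval of the main value, and the following medians moved by at least 0.1 in log2 units. With the length trend removed the sums were -0.14 over all nsp genes (main value -0.34), 0.76 for nspa (-0.11), -0.14 for nspc (-0.63), 0.75 for nspd (-0.07), 0.035 for nspe (-0.60) and -0.19 for nspg (-0.26), and the median over members was -0.072 (-0.35). With no minimum that median was -0.23. With total counts the sums were -0.30 over all nsp genes, -0.59 for nspc and -0.22 for nspg. With FPKM they were -0.37, -0.57 and -0.21. Without the most abundant member they were -0.32 over all nsp genes, -0.39 for nspe, -0.20 for nspg and 1.26 for nsph. Total counts change only the library scaling, so every sum moved by the same amount. The median over all measured genes was -0.002 in the main setting, 0.033 with total counts and 0.065 with FPKM. The FPKM value of a family is a ratio of summed FPKM, in which shorter transcripts weigh more than in a sum of counts. Leaving out a member or subtracting the trend changes a sum by construction. Any further cause of the shifts was not tested. Scaling moved the median of all genes by less than 0.1.

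Of the 44 single ratios, 28 moved outside their interval with the length trend removed, 6 with FPKM and 1 with total counts. Depth limits nspa, nspb, nspf and most nspd genes, and no value has an estimate of the spread between cultures.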
